A study of Mus musculus with 11 samples.

Results

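Skin RNA of 11 mice was measured with a 754-gene NanoString panel of myeloid and innate immunity genes, and 3 of those genes are described here: Il33, Il1rl1 and Il4. They were taken by name as the transcripts of IL-33, of its receptor ST2 and of IL-4, and each was read in every mouse. The 3 syngeneic mice and the 3 allo-WT mice were C57BL/6J recipients, and the 5 allo-MCd mice were mast cell-deficient B6.Cg-KitW-sh/HNihrJaeBsmGlliJ recipients. All 11 were females of 8 to 10 weeks that were irradiated with 850 cGy and given 5000000 bone marrow cells and 2000000 splenocytes by vein, and skin from the back of the neck was taken after week 7. By the study's methods the grafts of allo-WT and allo-MCd mice came from LP/J mice and those of syngeneic mice from C57BL/6J mice. The labels name LP/J for all 11, so the syngeneic donor strain rests on the methods. KitW-sh is an inversion near Kit that alters its expression in some other cell types beside mast cells, melanocytes among them, and the allo-MCd mice differed from the allo-WT mice in the recipient's genotype while their grafts came from the same donor strain.

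IL-33 is a cytokine of the IL-1 family that is stored in the nuclei of epithelial, endothelial and stromal cells and released when they are damaged or stressed. It binds ST2, the product of Il1rl1, which pairs with the accessory protein encoded by Il1rap and signals through MyD88 to NF-kappaB and the MAP kinases. ST2 is known from mast cells, group 2 innate lymphoid cells, regulatory T cells, basophils and eosinophils, and a soluble splice form of it acts as a decoy. IL-4 is the signature cytokine of type 2 immunity, is made by T cells, basophils, mast cells and eosinophils, and acts through the receptor chain encoded by Il4ra and the transcription factor STAT6.

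In the RefSeq annotation of GRCm38.p6, Il1rl1 lies on chromosome 1 from 40404864 to 40465418, Il4 on chromosome 11 from 53612460 to 53618665 and Il33 on chromosome 19 from 29925113 to 29960718. Mouse Il1rl1 is known for a distal start used by mast cells and other blood cells and a proximal one used by fibroblasts. The panel gives 1 value per gene, so neither these starts nor the membrane-bound and soluble forms of ST2 can be told apart in it. The 250 bases before a start are shown for 2 starts of Il1rl1, since its starts differ in use between cell types, and for 1 start each of Il4 and Il33, since the 3 genes are read together below. The annotated gene of Il1rl1 begins upstream of both windows, and no window of that start is shown. Each sequence is written 5′ to 3′ on the strand of its gene, and capitals mark 2 kinds of match: the GATA letters AGATAA on either strand, with T also accepted as their first base and G as their last, and the STAT letters TTCNNNNGAA.

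Il1rl1 upstream window, chr1:40429320-40429569, plus strand: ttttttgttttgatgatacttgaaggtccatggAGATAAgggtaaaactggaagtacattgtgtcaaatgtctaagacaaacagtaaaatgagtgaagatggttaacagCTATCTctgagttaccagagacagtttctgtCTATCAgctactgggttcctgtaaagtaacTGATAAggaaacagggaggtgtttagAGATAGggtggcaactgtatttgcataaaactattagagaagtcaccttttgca
Il1rl1 downstream window, chr1:40439379-40439628, plus strand: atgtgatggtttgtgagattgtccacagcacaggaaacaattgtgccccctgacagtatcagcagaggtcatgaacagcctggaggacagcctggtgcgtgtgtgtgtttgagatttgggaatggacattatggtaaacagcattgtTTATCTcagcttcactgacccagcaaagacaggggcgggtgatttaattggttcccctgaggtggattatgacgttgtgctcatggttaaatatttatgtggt
Il4, chr11:53618666-53618915, minus strand: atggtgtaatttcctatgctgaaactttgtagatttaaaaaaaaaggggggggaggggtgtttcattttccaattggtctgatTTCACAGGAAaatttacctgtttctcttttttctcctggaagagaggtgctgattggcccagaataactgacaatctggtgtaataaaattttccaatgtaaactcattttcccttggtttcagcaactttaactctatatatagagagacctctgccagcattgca
Il33, chr19:29924863-29925112, plus strand: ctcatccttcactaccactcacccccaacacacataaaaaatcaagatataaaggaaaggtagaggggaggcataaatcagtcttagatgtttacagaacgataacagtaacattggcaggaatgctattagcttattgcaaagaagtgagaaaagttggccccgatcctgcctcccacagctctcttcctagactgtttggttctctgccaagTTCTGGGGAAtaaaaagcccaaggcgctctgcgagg

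The upstream window of Il1rl1 held 5 GATA matches, which lay between 217 and 49 bases before the start, and its downstream window held 1. At least 1 GATA match was present in 26.5% of the 32841 promoter windows of this length in RefSeq, and 5 or more were present in 14 of them. The windows of Il4 and Il33 printed here held no GATA match and 1 STAT match each, a motif found in 5.85% of all windows. RefSeq gives each of them a further start that is not printed: that window held 1 GATA match and no STAT match for Il4 (chr11:53617339-53617588) and neither motif for Il33 (chr19:29945540-29945789). No match overlapped another. These are matches of letters, and no binding was measured.

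The depth of the panel and its scale bear on all 3 genes. The deposited values are normalized counts, and the counts behind them, recovered from each mouse's scaling factor, summed to between 831632 and 1460260 per mouse. Each value was set against the mouse's own background, the mean of 8 negative controls plus 2 SD, which lay between 14.3 and 37.5 normalized counts. Allo-WT mouse 1 stood apart in its brightest positive control, with 3975 counts against 17615 to 33547 in the other 10 mice, and its values were multiplied by the largest factor. The median gene of the panel read 241 to 356 in allo-MCd mice, 401 to 456 in syngeneic mice and 465 to 555 in allo-WT mice. Each difference of Il33, Il1rl1 and Il4 is therefore given on the deposited scale and again after every mouse was scaled to the same median gene, called median scaling below. Single differences of other genes are on the deposited scale, and where one passed the test there it also passed with median scaling unless stated. The label of the allo-MCd group was borne out by Cpa3, a mast cell protease, which read 29.9 to 309 in those mice and 1015 to 6690 in the other 6.

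Il33, the ligand, was highest in allo-WT mice 1 and 2 and lowest in the allo-MCd group. It read 1061, 1256 and 993 normalized counts in the syngeneic mice, 4713, 5261 and 968 in the allo-WT mice, and 497, 426, 462, 339 and 876 in the allo-MCd mice. The group means were 1103 ± 136 (SD, n = 3), 3647 ± 2336 (SD, n = 3) and 520.1 ± 207 (SD, n = 5). Allo-WT mouse 3 lay below all 3 syngeneic mice, so these groups overlapped. On the deposited scale every allo-MCd mouse lay below every mouse of the other groups. The gap was narrow: the highest allo-MCd mouse read 876 and the lowest allo-WT mouse 968.

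Il1rl1, the receptor, also had its 2 highest values in the allo-WT group, but in another pair of mice. It read 383, 333 and 482 normalized counts in the syngeneic mice, 1972, 396 and 1269.8 in the allo-WT mice, and 63.0, 154, 151, 70.2 and 204 in the allo-MCd mice. The group means were 399 ± 75.7 (SD, n = 3), 1213 ± 789 (SD, n = 3) and 128 ± 60.2 (SD, n = 5). Here allo-WT mouse 2 was the low one and lay within the syngeneic range, and the 5 allo-MCd mice again lay below all 6 others. Their values came from 83 to 177 recovered counts and were above background in 5 of 5 mice.

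Il4, the type 2 cytokine, was near or below the background of the panel in all mice but allo-WT mice 1 and 3. It read 34.4, 22.7 and 19.9 normalized counts in the syngeneic mice, 112, 27.5 and 135 in the allo-WT mice, and 9.87, 12.98, 11.4, 3.99 and 25.3 in the allo-MCd mice. The group means were 25.7 ± 7.72 (SD, n = 3), 91.5 ± 56.7 (SD, n = 3) and 12.7 ± 7.83 (SD, n = 5). Allo-WT mice 1 and 3, the 2 mice with high Il1rl1, had the 2 highest values and mouse 2 lay within the syngeneic range. Il4 was not above background in syngeneic mouse 1 and in allo-MCd mice 1 to 4, where it rested on 5 to 23 recovered counts. Allo-MCd mouse 5 was above background and lay above 2 of the 3 syngeneic mice.

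**Figure D1:**
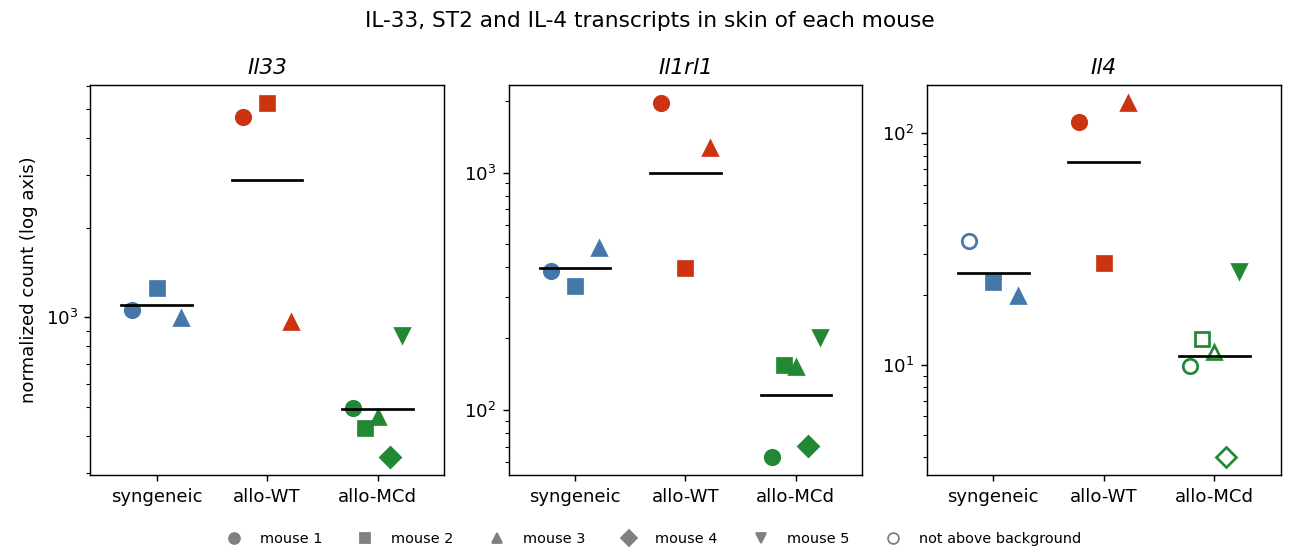
Normalized counts of Il33, Il1rl1 and Il4 in each mouse on log axes, 1 panel per gene and 1 column per group; symbols number the mice, open symbols were not above background and bars mark the mean on the log2 scale. Allo-WT mice 1 and 2 were high for Il33 (4713 and 5261) while allo-WT mice 1 and 3 were high for Il1rl1 (1972 and 1269.8) and Il4 (112 and 135), and the allo-MCd mice were lowest for Il33 and Il1rl1.

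The comparison of allo-MCd with allo-WT mice asks how these transcripts differed between mast cell-deficient and wild-type recipients of an allogeneic graft. All 3 genes fell. Il1rl1 differed by a log2 value of -3.09 (SE 0.51, limma adjusted p = 0.000237), which is 8.54-fold lower, Il33 by -2.55 (SE 0.48, adjusted p = 0.000671), 5.84-fold lower, and Il4 by -2.66 (SE 0.58, adjusted p = 0.00169), 6.34-fold lower. The Il4 fold rests on allo-MCd values of which 4 of 5 were not above background. None of the 3 overlapped between these groups on the deposited scale. The exact two-sided permutation test there gave p = 0.0179 for each, the smallest that 3 against 5 mice allow. Read against the panel, 50% of the 696 genes tested fell in this comparison and 46% lay lower without overlap, so a fall as such was common, and the median difference over all tested genes was -0.72. With median scaling the differences were -2.20 for Il1rl1 (adjusted p = 0.000836), -1.65 for Il33 (adjusted p = 0.00805) and -1.81 for Il4 (adjusted p = 0.00954), and 29.5% of the genes tested fell. Rises made up 10.9% of the genes tested on the deposited scale and 37.2% with median scaling. The exact permutation p then stayed at 0.0179 for Il1rl1 and was 0.0357 for Il4 and 0.0536 for Il33. Il33 and Il4 overlapped with median scaling. Allo-MCd mouse 5 then lay above allo-WT mouse 3 in Il33 and above allo-WT mouse 2 in Il4. In bulk skin, fewer cells that express a gene and less RNA per cell cannot be told apart.

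The comparison of allo-WT with syngeneic mice asks how the transcripts differed with an allogeneic graft in recipients that have mast cells. No member passed the test. The log2 differences were 1.39 for Il33 (95% interval 0.22 to 2.56, limma adjusted p = 0.0533), 1.34 for Il1rl1 (0.10 to 2.57, adjusted p = 0.0716) and 1.55 for Il4 (0.14 to 2.95, adjusted p = 0.0685), while 28.3% of the genes tested rose. In each gene 2 of 3 allo-WT mice lay above all syngeneic mice and the third did not, whereas 33.6% of the genes tested lay higher without overlap. The exact permutation p was 0.4 for Il33 and 0.2 for Il1rl1 and Il4, and 3 against 3 mice cannot go below 0.1. With median scaling the differences were 1.15, 1.10 and 1.30 (adjusted p = 0.0800, 0.0750 and 0.0807), and 24% of the genes tested rose. Falls made up 14.9% of the genes tested, and 26.9% with median scaling. These calls turned on 1 mouse: without allo-WT mouse 3 the difference of Il33 was 2.18 (adjusted p = 0.000376), and without allo-WT mouse 2 those of Il1rl1 and Il4 were 2.00 (adjusted p = 0.00872) and 2.25 (adjusted p = 0.0121).

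The comparison of allo-MCd with syngeneic mice sets the mast cell-deficient allogeneic recipients against the recipients of syngeneic grafts. Il1rl1 fell, by 1.76 on the log2 scale (SE 0.51, limma adjusted p = 0.0162). Il33 differed by -1.15 (95% interval -2.20 to -0.11, adjusted p = 0.0704) and Il4 by -1.12 (-2.37 to 0.14, adjusted p = 0.132), and neither passed the test. In this comparison 36.9% of the genes tested fell and 37.4% lay lower without overlap, as Il1rl1 and Il33 did on the deposited scale. With median scaling no member passed, with differences of -1.11 for Il1rl1 (adjusted p = 0.0755), -0.50 for Il33 (adjusted p = 0.451) and -0.51 for Il4 (adjusted p = 0.498), and 11.5% of the genes tested fell. The exact permutation p was 0.0179 for Il1rl1 and Il33, the smallest possible here, and 0.107 for Il4, and with median scaling it was 0.0357, 0.107 and 0.321. The call of Il1rl1 in the fit over all genes was thus lost with median scaling, and on the deposited scale it was also lost without syngeneic mouse 1 (adjusted p = 0.0529) or 3 (adjusted p = 0.0670).

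**Figure D2:**
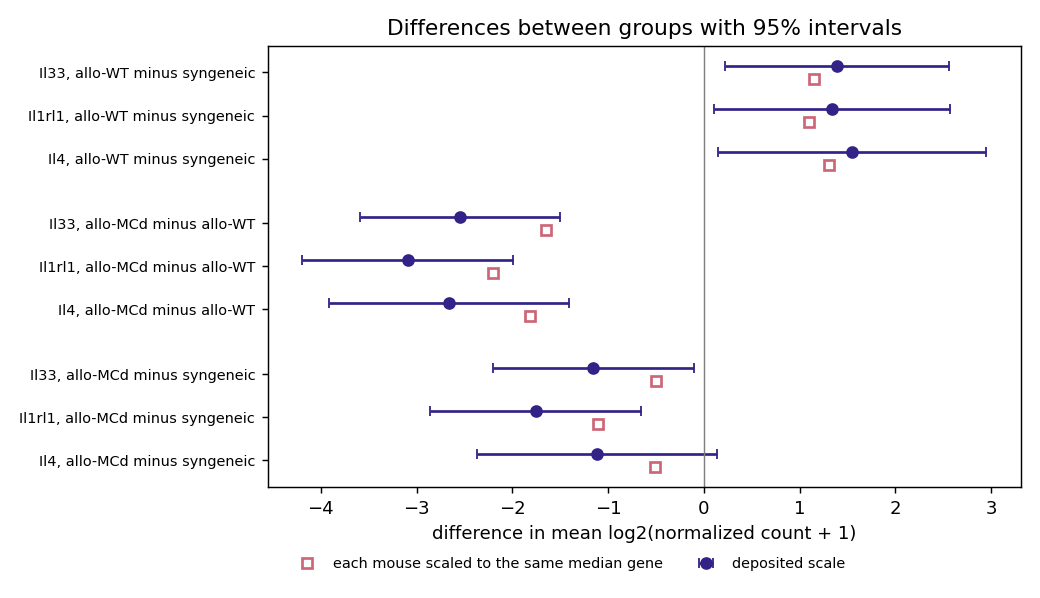
Differences in mean log2(normalized count + 1) for the 3 genes in the 3 comparisons; filled circles with bars are the deposited scale with unadjusted 95% intervals from limma, and open squares are the same differences with median scaling. The 3 differences between allo-MCd and allo-WT mice lie between -3.09 and -2.55 on the deposited scale and between -2.20 and -1.65 with median scaling.

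The members did not share 1 pattern across the mice. Allo-WT mouse 2 had the highest Il33 of all 11 mice with Il1rl1 and Il4 near the syngeneic level, and allo-WT mouse 3 had the highest Il4 and the second highest Il1rl1 with Il33 below the syngeneic range. The within-mouse log2 difference Il1rl1 minus Il33, in which the scale of a mouse cancels, ran from -3.73 to 0.39 over the 3 allo-WT mice against -1.91 to -1.04 over the syngeneic mice. That of Il4 minus Il1rl1 stayed between -4.14 and -3.23 in the allo-WT mice and between -4.60 and -3.48 in the syngeneic mice. Over the 11 mice, the log2 values of Il4 and Il1rl1 had a Pearson correlation of 0.936 on the deposited scale and 0.883 with median scaling. Those of Il33 and Il1rl1 had 0.735 and 0.505, and those of Il33 and Il4 had 0.665 and 0.408. These correlations describe 11 mice that share their group and the scale of their lane.

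The genes whose log2 values ran most like each member were found over the same 11 mice. For Il1rl1 they were Itgb1 (0.986), Mrc1 (0.970), Tgfb1 (0.968), Ccl9 (0.967) and Tyrobp (0.967), and with median scaling Mrc1 (0.939), Ccl9 (0.938) and Tyrobp (0.936) led. Mrc1 encodes the macrophage mannose receptor and Tyrobp an adaptor of myeloid receptors. For Il4 they were Il5ra (0.943), which encodes the IL-5 receptor of eosinophils, then Il1rl1 itself (0.936), Tnfaip6 (0.931), Plau (0.921) and Ccl11 (0.918), the gene of eotaxin. For Il33 they were Nfkb1 (0.960), Il15ra (0.959), Serpinb2 (0.957), Mertk (0.955) and Tnfrsf1a (0.954), of which Il15ra (0.908) and Serpinb2 (0.904) also led with median scaling. Serpinb2, a protease inhibitor of stressed epithelium and macrophages, read 7722, 8570.0 and 1648 in the allo-WT mice and so was low in mouse 3, as Il33 was.

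**Figure D3:**
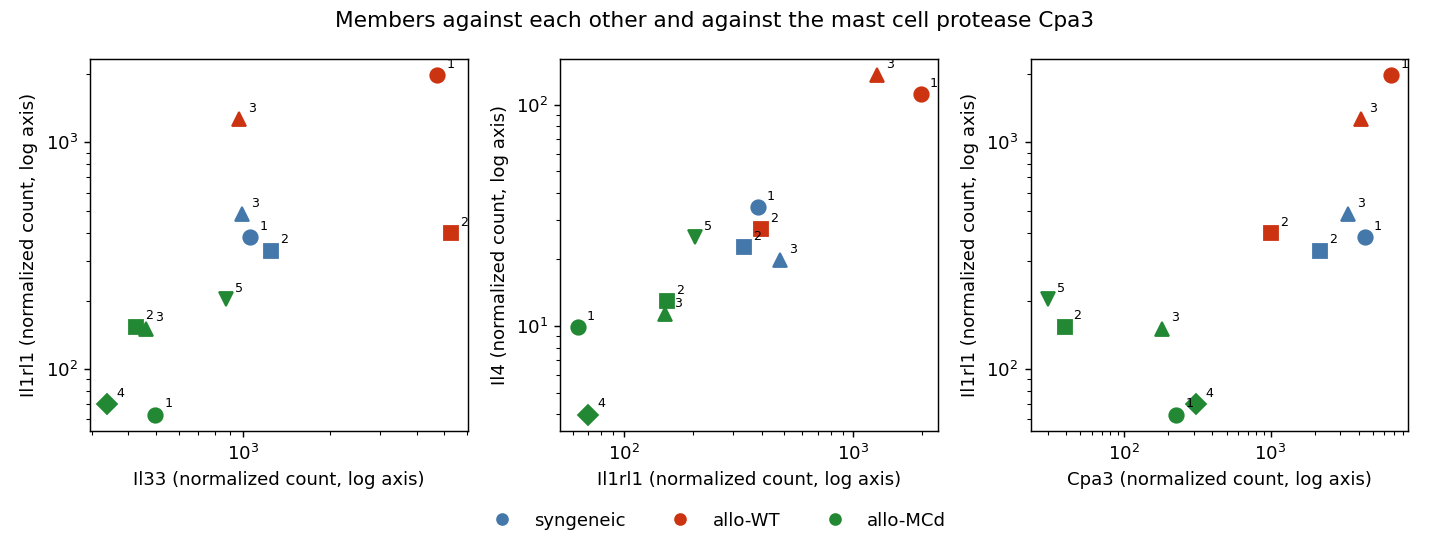
Normalized counts of pairs of genes on log axes, 1 point per mouse with its number, coloured by group: Il1rl1 against Il33, Il4 against Il1rl1 and Il1rl1 against Cpa3. Allo-WT mice 2 and 3 trade places between Il33 and Il1rl1 (5261 and 396 against 968 and 1269.8), and allo-MCd mice 2 and 5 had the lowest Cpa3 (38.9 and 29.9) with Il1rl1 at 154 and 204.

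Il1rl1 and the summed mast cell markers ran in the same order in the allo-WT mice and not in the syngeneic or allo-MCd mice. The summed level of the 8 mast cell markers on the panel was 4004 to 9755 in syngeneic mice, 2472 to 14952 in allo-WT mice and 185 to 704 in allo-MCd mice. All 8 fell in allo-MCd against allo-WT mice, with a median log2 difference of -3.97, and 6 of them with median scaling, beside 50% and 29.5% of all genes tested. All 8 fell against syngeneic mice, 7 of them with median scaling, beside 36.9% and 11.5%. Kit is 1 of the 8 and of the 7, and not of the 6. The KitW-sh inversion of the allo-MCd recipients lies near it, so it is not an independent mast cell marker there. Between allo-WT and syngeneic mice, Fcer1a, which encodes the binding chain of the IgE receptor, was the 1 marker that rose, where 28.3% of all genes tested did, by 2.23 (SE 0.75, adjusted p = 0.0296), and Gata2 fell with median scaling and not on the deposited scale. Fcer1a read 1706, 111 and 625 in allo-WT mice and 81.1 to 123 in syngeneic mice, so allo-WT mouse 2 lay within the syngeneic range. Its call was lost without any 1 of the syngeneic mice (adjusted p = 0.0600, 0.0788 and 0.0649) and without allo-WT mouse 1 (1.34, adjusted p = 0.118) or 3 (2.06, adjusted p = 0.0661). Cpa3 differed by -0.07 (adjusted p = 0.955) and Cma1, the gene of a chymase, by -0.01 (adjusted p = 0.991). The within-mouse log2 difference Il1rl1 minus Cpa3 was accordingly higher in allo-WT mice, at -1.76 to -1.36, than in syngeneic mice, at -3.53 to -2.70, without overlap, and it spread from -2.14 to 2.77 in allo-MCd mice. Allo-MCd mice 2 and 5, with the lowest summed mast cell levels, 192 and 185, had the highest and second highest Il1rl1 of their group, with mouse 5 first. Of the 8 mast cell markers 3 were above background in allo-MCd mouse 5 and 5 or 6 in the other 4 mice of the group, so mast cell transcripts were low and not absent. In the syngeneic group the summed mast cell level was highest in mouse 1 and Il1rl1 in mouse 3, and both were lowest in mouse 2. In the allo-WT group, mouse 1 had the highest summed mast cell level and the highest Il1rl1, and mouse 2 had the lowest of both and the lowest Il4. The summed fibroblast markers, given below, also ran in the order of Il1rl1 in the allo-WT mice. The part of mast cell RNA in the Il1rl1 and Il4 values was not tested.

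Other cell types that carry ST2 or make IL-4 were looked at through their markers. Of 9 eosinophil markers measured, 5 passed the low-value filter (Siglecf, Ccr3, Il5ra, Adgre1 and Alox15). All 5 rose in allo-WT against syngeneic mice and fell in allo-MCd against allo-WT mice, on both scales. Of all genes tested 28.3% rose and 50% fell there on the deposited scale. Of the 5 markers, 3 rose without syngeneic mouse 1 or 3. Siglecf, which encodes an eosinophil lectin, read 535, 113 and 939 in allo-WT mice, 45.2 to 53.0 in syngeneic mice and 44.8 to 90.9 in allo-MCd mice, and Ccr3, the eotaxin receptor gene, read 499, 80.0 and 975 in allo-WT mice. Both were thus lowest in allo-WT mouse 2, as Il1rl1 and Il4 were. The granule genes Epx and Prg3, which define eosinophils, were above background in at most 1 allo-WT mouse, and Prg2 in 2 of 3. Adgre1 encodes F4/80, which the study stained to identify spleen macrophages, and Alox15 is also counted among the IL-4-induced genes below. In the study, eosinophil counts on stained skin sections did not differ significantly between the groups. Of 11 regulatory T cell markers listed, 4 were on the panel (Ctla4, Icos, Il10 and Tnfrsf4), and Foxp3 was not among them. The summed level of these 4 was 920 to 1367 in allo-WT, 349 to 468 in syngeneic and 191 to 297 in allo-MCd mice. Icos, the gene of a costimulatory receptor, read 474 to 813 in allo-WT mice. It differed by -3.41 on the log2 scale between allo-MCd and allo-WT mice (adjusted p = 8.03e-07). The 2 T cell markers on the panel, of 14 listed, summed to 326 to 340 in allo-WT, 224 to 239 in syngeneic and 76.0 to 146 in allo-MCd mice. Basophils had 2 markers of 7 on the panel, of which Hgf was higher and Il3ra lower on average in allo-WT than in syngeneic mice, while both were lowest on average in allo-MCd mice. Hgf read 372 to 870 in allo-WT, 141 to 204 in syngeneic and 84.3 to 193 in allo-MCd mice, and Il3ra 223 to 326, 308 to 591 and 104.0 to 261. Hgf rose in allo-WT against syngeneic mice and fell in allo-MCd against allo-WT mice, and Il3ra did not pass the test in either on the deposited scale. The part of each of these cell types in the member values was not tested.

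Gata3, which encodes the transcription factor of type 2 lymphocytes and is also expressed in skin epithelium, went the other way from Il4. It read 3605, 5910.2 and 3515 in syngeneic mice, 449, 1101 and 2669 in allo-WT mice and 4500 to 6119 in allo-MCd mice. It fell in allo-WT against syngeneic mice, by 1.94 on the log2 scale (SE 0.48, adjusted p = 0.00721), and rose in allo-MCd against allo-WT mice, by 2.20 (SE 0.43, adjusted p = 0.000834). Of the 5 markers of group 2 innate lymphoid cells, Gata3 was the only one that rose in allo-MCd against allo-WT mice, while Il5 and Il13 fell on the deposited scale and neither did with median scaling. Il5 was above background in 2 of 3 allo-WT mice and 0 of 5 allo-MCd mice, and its high value, 63.9, was that of allo-WT mouse 3.

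The cell types known to store IL-33 were poorly covered. Cdh1, an epithelial cadherin and the 1 keratinocyte marker of 15 on the panel, read 2216 to 4748 in syngeneic, 3955 to 6371 in allo-WT and 4652 to 5187 in allo-MCd mice. It passed the test in no comparison on the deposited scale. With median scaling it rose in allo-MCd mice, by 0.85 against allo-WT and 1.23 against syngeneic mice. Of the 696 genes tested, 259 and 117 rose there. Of 7 endothelial markers, 3 fell in allo-WT against syngeneic mice, or 4 with median scaling, beside 14.9% and 26.9% of all genes tested, among them Tek, the angiopoietin receptor gene, by 1.62 (SE 0.37, adjusted p = 0.00488), and their summed level was 11964 to 15830 in syngeneic mice, 4638 to 7052 in allo-WT mice and 4104 to 8852 in allo-MCd mice. Of 6 fibroblast markers, 1 fell in that comparison (Col1a2), or 3 with median scaling (Col1a2, Pdgfra and Pdgfrb), and none without syngeneic mouse 1 or 3 or allo-WT mouse 2 and 2 without allo-WT mouse 3. They summed to 103543 to 206104 in syngeneic, 20341 to 155653 in allo-WT and 41077 to 96469 in allo-MCd mice. In allo-WT mice 1, 2 and 3 the sums were 155653, 20341 and 111103, the same order as Il1rl1. In the allo-MCd group mice 5, 2 and 3 led both, with sums of 96469, 64485 and 46119. The syngeneic order differed, with the highest sum in mouse 1 and the highest Il1rl1 in mouse 3. In allo-MCd against allo-WT mice Sele alone of the endothelial markers and 2 of the fibroblast markers (Pdgfra and S100a4) fell on the deposited scale. No endothelial marker fell without allo-WT mouse 1 or allo-MCd mouse 1 or 4, and no fibroblast marker fell without allo-WT mouse 1 and 1 fell without allo-WT mouse 3 or allo-MCd mouse 1, 2 or 4. With median scaling 4 endothelial markers rose (Cdh5, Tek, Cd34 and Erg) and no fibroblast marker passed the test. Of all genes tested 50% fell in this comparison on the deposited scale, and 37.2% rose with median scaling. The part of these cell types in the Il33 and Il1rl1 values was not tested.

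Il1rap and Myd88, which act beside and below ST2, differed by less than Il1rl1 between allo-MCd and allo-WT mice, and the difference between genes was not tested. Il1rap, the coreceptor, read 446, 692 and 634 in syngeneic mice, 1006, 715 and 595 in allo-WT mice and 386 to 566 in allo-MCd mice. It fell in allo-MCd against allo-WT mice by 0.74 on the log2 scale (SE 0.23, adjusted p = 0.0138), not without allo-WT mouse 1 (-0.53, adjusted p = 0.0803), and with median scaling its difference was 0.16 (adjusted p = 0.532). Myd88, the adaptor, rose in allo-WT against syngeneic mice on both scales, by 0.84 (SE 0.21, adjusted p = 0.00734) and 0.60 (adjusted p = 0.0432). Of the 9 genes of ST2 signalling on the panel, 4 fell in allo-MCd against allo-WT mice (Il1rap, Myd88, Nfkb1 and Nfkbia) and Jun rose, with a median of -0.54, beside 50% and 10.9% of all genes tested and their median of -0.72. With median scaling none fell, Mapk14 and Jun rose and the median was 0.36, beside 29.5%, 37.2% and 0.17 over all genes tested. Without allo-MCd mouse 5 the deposited-scale count that fell was 7, and without allo-WT mouse 1 the count that rose was 0. In allo-WT against syngeneic mice 1 of the 9, Myd88, rose and none fell, or 1 without syngeneic mouse 2, with a median of 0.03, beside 28.3% and 14.9% of all genes tested and their median of 0.21. With median scaling Myd88 rose, Mapk14 and Jun fell and the median was -0.21, beside 24%, 26.9% and -0.026.

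Of 13 genes of the IL-1 family and its processing, 5 rose in allo-WT against syngeneic mice and Il1r2 fell, with a median of 0.81 against 0.21 over all tested genes, of which 28.3% rose. With median scaling 3 rose (Il1a, Casp1 and Ctsg), Il1r2 fell and the median was 0.58, against -0.026 over all tested genes, of which 24% rose. Without allo-WT mouse 2 the deposited-scale count that rose was 3. Il1a, an alarmin like IL-33, read 1739, 979 and 330 in allo-WT mice, 98.8 to 169 in syngeneic mice and 82.2 to 98.3 in allo-MCd mice, and was thus also lowest in allo-WT mouse 3. It rose by 2.66 (SE 0.47, adjusted p = 0.00114), and it fell in allo-MCd against allo-WT mice by 3.14 (SE 0.42, adjusted p = 5.46e-05). Il1r2, which encodes the decoy receptor of IL-1, fell in allo-WT against syngeneic mice by 1.65 (SE 0.24, adjusted p = 0.000383). In allo-MCd against allo-WT mice 9 of the 13 fell on the deposited scale, with a median of -1.38, beside 50% of all genes tested and their median of -0.72. With median scaling 5 fell and 3 rose, beside 29.5% and 37.2%.

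Il4ra, the receptor chain of IL-4, was separated between all 3 groups on the deposited scale. It read 1679, 1433 and 1421 in syngeneic mice, 4538, 3013 and 2823 in allo-WT mice and 678, 863, 762, 585 and 1003 in allo-MCd mice. It rose in allo-WT against syngeneic mice by 1.16 on the log2 scale (SE 0.24, adjusted p = 0.00259) and differed in allo-MCd against allo-WT mice by -2.14 (SE 0.21, adjusted p = 5.85e-06), and both held with median scaling, at 0.92 (adjusted p = 0.00328) and -1.24 (adjusted p = 0.000111). Its fall against syngeneic mice, by 0.98 (adjusted p = 0.00411), did not, at -0.32 (adjusted p = 0.197). Separation was common: 33.6% of all genes tested lay higher without overlap in allo-WT against syngeneic mice. In allo-MCd mice 46% lay lower without overlap against allo-WT mice and 37.4% against syngeneic mice. Stat6 read 1732 to 2467 in allo-MCd mice and fell against allo-WT mice by 0.72 (SE 0.18, adjusted p = 0.00363). With median scaling its difference had the opposite direction, at 0.17 (adjusted p = 0.310), and did not pass the test.

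Of the 13 genes of IL-4 and IL-13 receptor signalling, 4 rose and 2 fell in allo-WT against syngeneic mice, where 28.3% of all genes tested rose and 14.9% fell. Il4ra, Socs1, Socs3 and Batf rose on both scales. Irf4 and Gata3 fell on both, and Stat5b and Socs2 fell with median scaling alone, which made 4 that rose and 4 that fell. Socs1, a feedback inhibitor of cytokine receptors, rose by 1.83 (SE 0.27, adjusted p = 0.000401), and it fell in allo-MCd against allo-WT mice by 2.58 (SE 0.25, adjusted p = 4.53e-06). Batf, a transcription factor of activated lymphocytes, rose by 1.60 (SE 0.32, adjusted p = 0.00213) and fell by 2.94 (SE 0.28, adjusted p = 4.85e-06). In allo-MCd against allo-WT mice 9 of the 13 fell and Gata3 rose, with a median of -0.83, beside 50% and 10.9% of all genes tested and their median of -0.72. With median scaling 4 fell and 2 rose, with a median of 0.07, beside 29.5%, 37.2% and 0.17.

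Of the other type 2 cytokines and receptors, 14 were on the panel and 11 passed the low-value filter. Il13, which shares a receptor with IL-4, read 40.4, 34.6 and 18.7 in syngeneic mice, 27.9, 43.0 and 151 in allo-WT mice and 13.4 to 24.1 in allo-MCd mice. The single high value was that of allo-WT mouse 3, which also had the highest Il4. Il13 fell in allo-MCd against allo-WT mice by 1.72 (SE 0.48, adjusted p = 0.00848), and not with median scaling, at -0.86 (adjusted p = 0.151). It was above background in only 2 of 3 allo-WT and 2 of 5 allo-MCd mice, which limits the size of this difference. Il5ra read 114, 23.9 and 148 in allo-WT mice, in the same order as Il4, and 22.4 to 25.4 in syngeneic mice, and it rose in that comparison by 1.58 (SE 0.56, adjusted p = 0.0374). That call was lost without any 1 of the syngeneic mice (adjusted p = 0.0889, 0.0720 and 0.0779) and without allo-WT mouse 1 (1.27, adjusted p = 0.123) or 3 (1.09, adjusted p = 0.124). Il21r, the IL-21 receptor gene, was high in all 3 allo-WT mice, at 335, 311 and 212 against 29.8 to 39.0 in syngeneic mice. Areg, which encodes the repair factor amphiregulin, read 1181, 890 and 307 in allo-WT mice, with the lowest value in mouse 3 as for Il33, and rose against syngeneic mice by 2.11 (SE 0.49, adjusted p = 0.00509). In all, 3 of the 11 rose in allo-WT against syngeneic mice on both scales and 2 fell with median scaling alone (Il3ra and Csf2ra), and 7 of the 11 fell in allo-MCd against allo-WT mice, of which 3 did with median scaling. Over all genes tested 28.3% rose in the first comparison, and 50% fell in the second, or 29.5% with median scaling.

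Genes that IL-4 is known to induce in macrophages, dendritic cells, B cells or stroma were split. Of the 23 tested, 8 rose and 3 fell in allo-WT against syngeneic mice, with a median of 0.62, beside 28.3% and 14.9% of all genes tested. With median scaling 8 rose and 6 fell, with a median of 0.38, beside 24% and 26.9%. In allo-MCd against allo-WT mice 14 fell and 1 rose, with a median of -1.76, beside 50% and 10.9% of all genes tested and their median of -0.72. With median scaling 11 fell and 5 rose, beside 29.5% and 37.2%. The count that fell in allo-WT against syngeneic mice turned on single mice: it was 0 without syngeneic mouse 1 or 3, allo-WT mouse 1 or allo-MCd mouse 1 or 2, 1 without allo-WT mouse 2 or allo-MCd mouse 3, and 7 without allo-WT mouse 3. The count that rose in allo-MCd against allo-WT mice was 2 without allo-WT mouse 2. Chil4, a chitinase-like protein gene of alternatively activated macrophages, read 2890.0, 3613 and 613 in allo-WT mice and 9.21 to 23.8 in the other 8, and rose by 6.71 (SE 0.58, adjusted p = 1.77e-05). Chil3, its close relative, rose by 6.07 (SE 1.10, adjusted p = 0.00126), and signal shared between the probes of these 2 genes was not tested. Each was above background in 1 of 3 syngeneic and 1 of 5 allo-MCd mice, so the sizes of these rises rest on syngeneic values most of which were not above background. Both were lowest in allo-WT mouse 3, which had the highest Il4. Mrc1 rose by 1.39 (SE 0.28, adjusted p = 0.00248) and fell in allo-MCd against allo-WT mice by 2.79 (SE 0.25, adjusted p = 2.88e-06), and Ccl8, a chemokine gene, rose by 3.22 (SE 0.26, adjusted p = 9.6e-06) and fell by 3.75 (SE 0.23, adjusted p = 5.22e-07). Retnla, another gene of alternatively activated macrophages, went otherwise: it read 51532 to 53422 in syngeneic mice, 9927, 11701 and 99390.1 in allo-WT mice and 3125 to 11815 in allo-MCd mice. Its high allo-WT value was that of mouse 3, and it did not pass the test between allo-WT and syngeneic mice (log2 difference -1.21, adjusted p = 0.181).

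**Figure D4:**
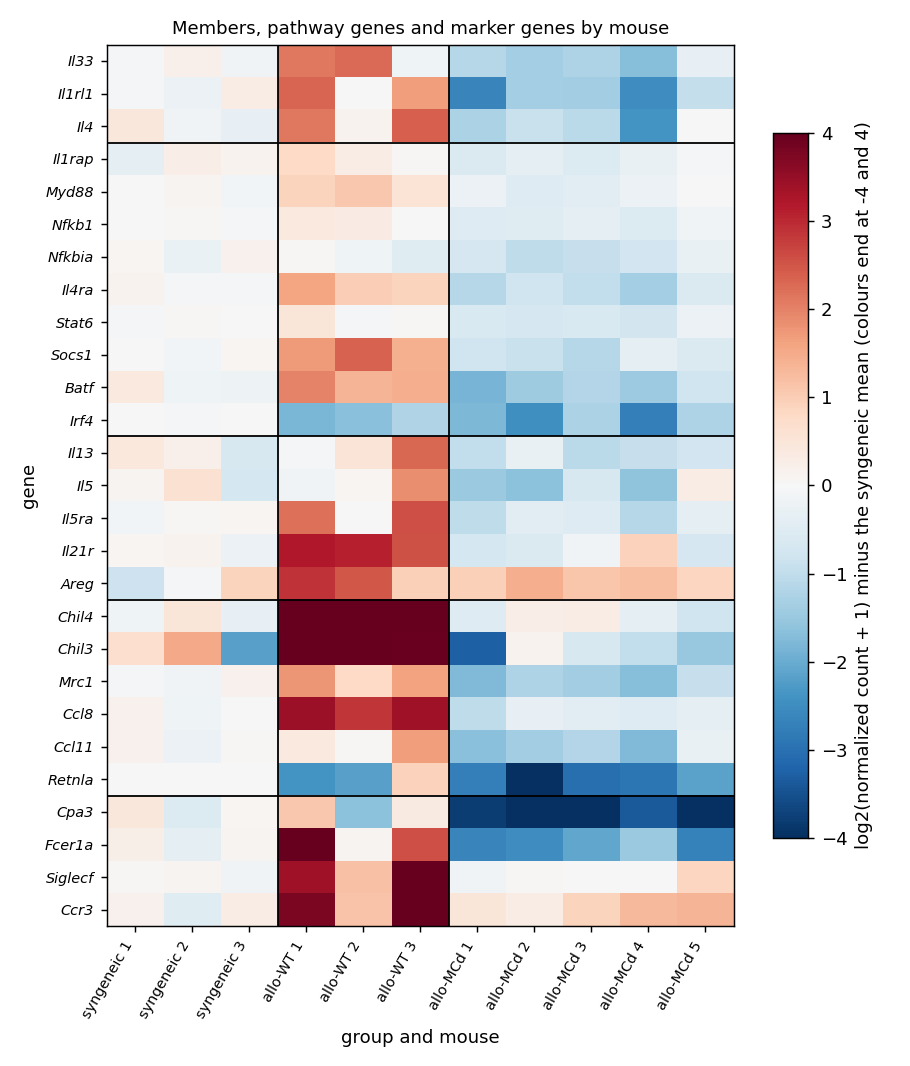
Log2(normalized count + 1) minus the syngeneic mean for the members, the receptor and signalling genes, type 2 cytokines and receptors, IL-4-induced genes and marker genes (blocks from top to bottom) in each mouse, with colours ending at -4 and 4. Il33, Areg and Chil4 were lower in allo-WT mouse 3 than in mice 1 and 2 (968, 307 and 613 normalized counts in mouse 3), whereas Il1rl1, Il4, Il5ra, Siglecf and Ccr3 were lowest in allo-WT mouse 2.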

How the data were processed

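RNA (100 ng per mouse) was hybridized by the authors to a NanoString Myeloid Innate Immunity panel, and per the file headers and labels the deposited signal is a linear normalized count, scaled in nSolver. In 10 mice the geometric mean of 20 housekeeping genes, identified after their values were seen, came to 1104.0, so the deposited scale is a housekeeping scale; in allo-MCd mouse 5 it was 1089. Whole counts were recovered from 1 factor per mouse (0.759 to 2.54, tolerance 0.011, at least 99.87% of values whole).

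The 20 housekeeping genes and 14 controls were set aside, and of the 734 genes left, 696 reached 20 in 3 or more mice and were tested; all 3 members passed, Il4 through 6 mice. log2(value + 1) was fitted over the 3 groups with limma 3.58.1 in R 4.3.3 (intensity trend, Benjamini-Hochberg over all 696 genes, threshold 0.05), and members were also tested by exact two-sided permutation. Fold changes are on the log2(value + 1) scale, which understates those of low genes. Each mouse was 1 animal and 1 lane. The fit was tested on simulated data.

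Members and lists were chosen with earlier results of these data known. Named genes are the members; Il1rap, Myd88, Il4ra, Stat6 and Il13; mast cell genes; the 3 genes with the largest called difference per list and comparison; and the 5 most correlated with each member, of which the text names some. Epx, Prg2, Prg3, Socs3, Mapk14, Cdh1 and the other list members given by name alone were named after their values were seen. Some list genes are counted but not reported by name here. Of 754 symbols, 744 matched RefSeq (GRCm38.p6) and 9 matched a synonym. Promoter windows came from RefSeq. Alternatives were other pseudocounts, filters, scalings and fits, and leaving out each mouse.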

Additional observations from a re-analysis of the deposited data

Results flagged for a closer look

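The allo-MCd group was the only group with enough mice to look for single mice that stood apart, measured as the gap to the nearest mouse over the range of the group, with Dixon's critical value of 0.71. Il33 came just short of it in mouse 5 (0.705), and Il4 (0.579) and Il1rl1 (0.354) lay lower. Of 78 named genes, 6 had 1 allo-MCd mouse past it, and chance alone gives about 1 in 20. In mouse 5 these were Stat6 (gap 0.776 of the range, 2467 normalized counts against 1732 to 1897), Siglecf (0.866, 90.9 against 44.8 to 51.0), Icos (0.884, 85.2 against 55.4 to 58.9), Ccl24 (0.798, 429 against 118 to 181) and Mertk (0.763, 405 against 259 to 293). In mouse 4 it was Il21r (0.769, 67.8 against 21.3 to 32.03). Mouse 5 also had the highest Il33, Il1rl1 and Il4 of its group.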

How the results depend on the processing

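The falls of Il33, Il1rl1 and Il4 in allo-MCd against allo-WT mice kept their direction and passed the test under every alternative that gave a value and without each mouse in turn, with log2 differences over the left-out mice of -3.33 to -2.11, -3.76 to -2.60 and -3.37 to -2.24. Without allo-WT mouse 1, whose positive control was low, they were -2.19, -2.60 and -2.38. Il4 had too few values of at least 50 to be tested under that filter.

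The other calls were less stable, and the cause was not tested. In allo-WT against syngeneic mice, Il33 passed with the replicate block (1.39, adjusted p = 0.0468) and without allo-WT mouse 3 or allo-MCd mouse 5 (range over left-out mice 0.96 to 2.18), Il1rl1 passed without allo-WT mouse 2 (range 0.84 to 2.00), and Il4 passed with a pseudocount of 20 (1.13, adjusted p = 0.0313) and without allo-WT mouse 2 or allo-MCd mouse 4 (range 1.12 to 2.25). In allo-MCd against syngeneic mice, Il33 passed in a fit of those 2 groups alone (-1.15, adjusted p = 0.00670) and without allo-WT mouse 3 or allo-MCd mouse 5 (range -1.36 to -1.02). Il1rl1 no longer passed with median scaling (-1.11, adjusted p = 0.0755), quantile normalization (-1.05, adjusted p = 0.113), the methods' test on linear values (-1.76, adjusted p = 0.638, adjusted over pairs of groups and not over genes) or voom on recovered counts, chosen after seeing the data (-1.20, adjusted p = 0.0694), and without syngeneic mouse 1 or 3 (range -1.96 to -1.54). The difference of Il4 there ran from -1.40 to -0.80 over the left-out mice.

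Other genes were followed only in the comparisons for which they were named. Of these, some changed direction, with values given first for median scaling, then quantile normalization, then voom. They were, in allo-MCd against allo-WT mice, Il1rap (0.16, 0.048, 0.19), Stat6 (0.17, 0.18, 0.19) and Pdgfra (0.23, 0.007, 0.25); in allo-MCd against syngeneic mice, Il1rap (0.29, 0.19, 0.21) and Myd88 (0.36, 0.27, 0.28); and in allo-WT against syngeneic mice, Stat6 (-0.086, -0.24, -0.18) and Tpsb2 (-0.22, -0.24, -0.35; -0.004 with the 10 most stable housekeeping genes). In allo-MCd against syngeneic mice Stat6 (0.089, 0.007) and Mapk14 (0.17, 0.084) did so with median scaling and voom. Leaving out a mouse turned the direction in allo-WT against syngeneic mice of Cma1 (range -0.62 to 0.77), Cpa3 (-0.64 to 0.72), Tpsb2 (-0.49 to 0.58), Kit (-1.41 to 0.012) and Stat6 (-0.011 to 0.27).

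Of 84 counts of listed genes called higher or lower, 39 moved by over 1.5 times with median scaling, 39 with quantile normalization and 43 with voom. Leaving out a mouse moved at most 11 of them, without syngeneic mouse 1 or 3; the count of ST2 signalling genes that fell in allo-MCd against allo-WT mice ran from 3 to 7, and that of IL-4-induced genes that fell in allo-WT against syngeneic mice from 0 to 7.

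Replicate numbers did not pair the mice: over 9 same-numbered pairs the correlation of deviations from the group means was -0.11 to 0.21, and the replicate block changed no other member call. edgeR on recovered counts was planned and not run. The precision of Il4 is limited by its 5 to 23 counts in mice not above background.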
